A study of Mus musculus with 76 samples.

Results

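Promoter histone marks and messenger RNA levels were set side by side in wild type mouse diencephalon at E11.5. All 21631 protein-coding genes that could be matched between the annotation and the count tables, of 21770, were sorted into groups by 3 histone modifications at their gene start. A gene carried H3K4me3, H3K27ac or H3K27me3 when a peak of that mark lay within 2 kb of its annotated start (mouse genome build mm39) in both replicates. The 8 possible combinations were then compared in the 4 wild type E11.5 RNA samples, which took no part in the grouping. The animals were C57BL/6J embryos with no human sequence, from crosses of wild type parents, and the tissue was dissected whole diencephalon, the part of the forebrain that forms thalamus, hypothalamus and pretectum. Every replicate pooled 6 embryos of 1 litter, so that neither single embryos nor single cell types were resolved. The lot of H3K27ac antibody that was used also binds histone H2B acetylated at lysine 5, which limits how far that signal stands for 1 modification. RNA was selected by its poly(A) tail, and the 4 RNA samples held between 18124370 and 23242350 reads assigned to genes. Their replicate pairs correlated with Pearson's r between 0.989 and 0.997 across genes, which are not independent replicates. For later comparison, 4 wild type E17.5 RNA samples, each from 3 pooled embryos, held between 19090571 and 24272569 assigned reads.

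H3K4me3 is trimethylation of histone H3 at lysine 4 and is laid down by MLL and SET1 complexes around gene starts, above all at CpG islands. H3K27ac is acetylation of lysine 27 by p300 and CBP, and it marks active promoters and enhancers. H3K27me3 is trimethylation of the same lysine by Polycomb repressive complex 2, so that a single histone tail cannot carry both. Promoters with H3K4me3 and H3K27me3 together are called bivalent, and in embryos they are known for genes of developmental regulators. Bulk chromatin cannot tell marks on 1 allele from marks in different cells of the tissue, and in bulk RNA fewer cells of a type cannot be told apart from less RNA per cell.

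H3K4me3 was the most common of the marks. It was called at 13371 genes (61.8%), H3K27ac at 9985 (46.2%) and H3K27me3 at 4414 (20.4%). A peak in only 1 of the 2 replicates was left uncounted at 180 genes for H3K4me3, 817 for H3K27ac and 848 for H3K27me3. The commonest combination was H3K4me3 with H3K27ac, at 8241 genes (38.1%). The next was no mark at all, at 7722 genes (35.7%). H3K4me3 with H3K27me3 was found at 2400 genes (11.1%), all 3 marks at 1607 (7.43%) and H3K4me3 alone at 1123 (5.19%). Leaving out genes with any mark in only 1 replicate cut the group with H3K4me3 alone to 570 genes. Combinations without H3K4me3 were rare, with 401 genes (1.85%) that had H3K27me3 alone, 131 (0.606%) that had H3K27ac alone and 6 that had H3K27ac with H3K27me3.

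The groups differed in RNA level far more than the 4 samples differed within a group. Genes with H3K4me3 and H3K27ac had a median of 42.0, 41.0, 42.8 and 42.8 CPM (reads of a gene scaled to 1000000 gene reads in each sample) in replicates 1 to 4. Genes with all 3 marks had medians of 29.2, 27.8, 28.0 and 29.3 CPM. Genes with H3K4me3 alone had medians of 6.28, 5.96, 6.19 and 6.37 CPM. These values fell into separate ranges, with no sample of a lower group reaching a sample of the next.

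Genes with H3K4me3 and H3K27me3 had medians of 2.2, 2.04, 2.05 and 2.11 CPM. Genes with H3K27ac alone had medians of 1.45, 1.43, 1.84 and 1.68 CPM, again below every sample of the group before. Genes with H3K27me3 alone had medians of 0.107, 0.110, 0.105 and 0.129 CPM, which is 2 to 3 reads. Unmarked genes had a median of 0 in all 4 samples. On the scale of CPM per kb of exon, which allows levels of genes to be compared, the medians over samples were 6.13 ± 0.104 for H3K4me3 with H3K27ac, 4.11 ± 0.108 for all 3 marks, 1.18 ± 0.0425 for H3K4me3 alone, 0.402 ± 0.0122 for H3K4me3 with H3K27me3, 0.351 ± 0.0130 for H3K27ac alone and 0.0378 ± 0.00327 for H3K27me3 alone (mean ± SD, n = 4). The order of the groups was therefore the same on both scales.

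Within a group the genes ranged widely. From the 10th to the 90th percentile, CPM ran from 4.91 to 195 for H3K4me3 with H3K27ac, from 3.01 to 151 for all 3 marks, from 0.135 to 57.9 for H3K4me3 alone and from 0.0625 to 21.1 for H3K4me3 with H3K27me3. The unmarked genes reached only 3.29 CPM at their 90th percentile. Groups with separate medians therefore overlapped gene by gene.

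**Figure D1:**
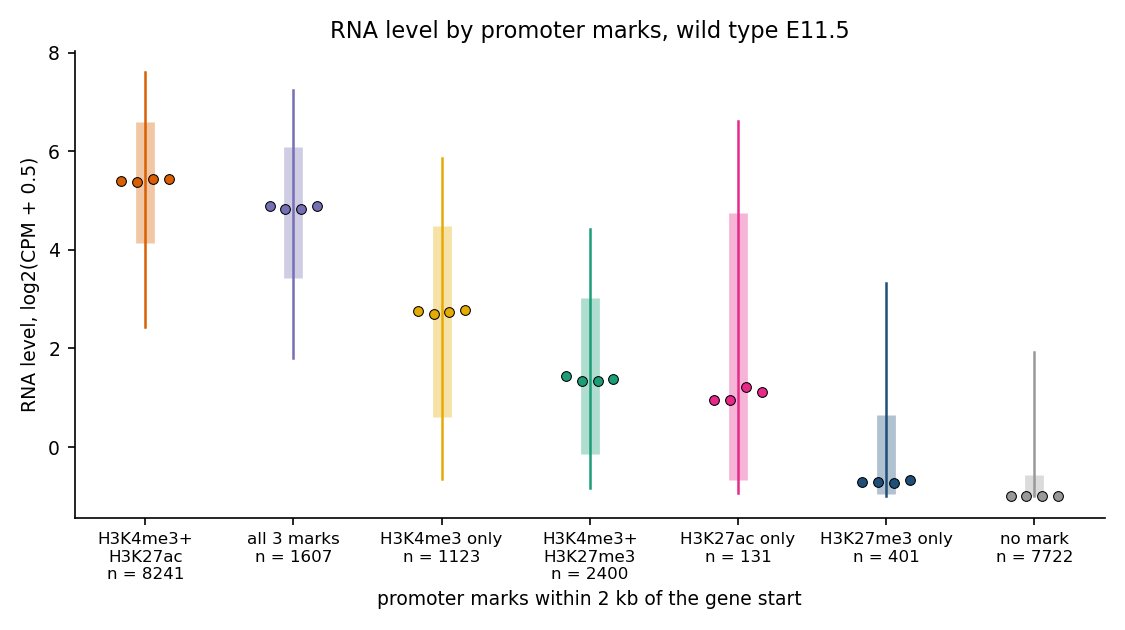
RNA level by promoter mark group in wild type diencephalon at E11.5, with the CPM of genes on a log axis and the 4 samples shown for each group. The group with H3K4me3 and H3K27ac lies highest with a median of 42.2 CPM, all 3 marks follow at 28.6, and the unmarked genes have a median of 0.

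A gene was counted as detected when it reached 1 CPM in all 4 samples, which 12575 of the 21631 genes did (58.1%). Most genes with both H3K4me3 and H3K27ac were detected, namely 7763 of 8241 (94.2%) without H3K27me3 and 1506 of 1607 (93.7%) with all 3 marks. With H3K27ac but no H3K4me3 it was 64 of 131 genes (48.9%), and 4 of 6 with H3K27ac and H3K27me3. Detection was lower for H3K4me3 alone, at 786 of 1123 (70.0%), and for H3K4me3 with H3K27me3, at 1358 of 2400 (56.6%), which is close to the share over all genes. H3K27me3 alone had 88 of 401 genes detected (21.9%) and no mark 1006 of 7722 (13.0%). No read in any of the 4 samples was counted for 4559 genes (21.1%), and 4221 of these (92.6%) were unmarked. Of all reads assigned to genes, 76.0% ± 0.244 (SD, n = 4) fell on the H3K4me3 with H3K27ac group, 10.8% on genes with all 3 marks and 6.98% on unmarked genes.

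Acetylation went with the largest differences among H3K4me3 promoters. The median of log2(CPM + 0.5) was 2.67 ± 0.0222 (SD over 4 samples) higher with H3K4me3 and H3K27ac than with H3K4me3 alone, a 6.37-fold difference. Where H3K27me3 was present too, the difference with and without H3K27ac was 3.48 ± 0.0211, or 11.2-fold. Both differences had the same sign in 4 of 4 samples. A gene drawn from the H3K4me3 with H3K27ac group was higher than a gene drawn from the H3K4me3 group in 77.7% to 78.9% of pairs, depending on the sample, and a gene with all 3 marks was higher than one with H3K4me3 and H3K27me3 in 84.1% to 84.4%.

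H3K27me3 went with lower levels, to an unequal degree. Without acetylation, the median was 1.37 ± 0.0346 lower on the log2 scale with H3K27me3 than without it, or 2.58-fold lower, in 4 of 4 samples. With acetylation, all 3 marks against H3K4me3 and H3K27ac, the median was 0.55 ± 0.0386 lower, or 1.47-fold, also in 4 of 4 samples. In single pairs of genes the H3K27me3 carrier was the higher in 36.8% to 37.7% without acetylation and in 41.7% to 42.8% with it. The 2 differences were not tested against each other.

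These differences used an exact two-sided sign-flip test over the 4 samples, which cannot give a p below 0.125, and each gave 0.125 (adjusted p = 0.125), so that none could pass a threshold of 0.05. The samples are pools of litters, and such a p measures only the spread between these samples. Where a peak had to cover the gene start itself, the difference of acetylated over H3K4me3-only genes shrank to 0.93, that of H3K4me3 with H3K27me3 grew to -2.76 and that of all 3 marks against H3K4me3 with H3K27ac went to -0.0028 on the log2 scale. Some genes had a mark in only 1 replicate. Without them, H3K4me3 with H3K27ac differed from H3K4me3 alone by 3.33 and H3K4me3 with H3K27me3 by -1.02.

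Genes without H3K4me3 were mostly silent in this tissue. The median of H3K27me3-only genes lay at or below 3 reads, which correspond to 0.129 to 0.166 CPM, and so did that of unmarked genes, so that no fold is given between them. An H3K27me3-only gene was the higher in 62.6% to 64.8% of pairs with an unmarked gene. Against H3K27me3 alone, genes with H3K4me3 as well were 2.08 higher on the log2(CPM + 0.5) scale, in 4 of 4 samples and in 72.4% to 73.5% of pairs. The size of this difference depended on the scale, at 3.37 with a pseudocount of 0.1, 1.48 with 1 and 0.75 for CPM per kb. H3K4me3 alone exceeded no mark in 86.4% to 86.9% of pairs and H3K27ac alone in 78.6% to 80.6%.

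Read in the other direction, the marks followed RNA level in different ways. Among the 6428 genes with a median over the samples under 0.1 CPM, 9.99% carried H3K4me3, 3.78% H3K27ac and 8.59% H3K27me3. H3K4me3 rose early along the scale, to 47.2% between 0.1 and 1 CPM and 88.8% between 4 and 16 CPM, and stayed between 91.3% and 94.1% above 16 CPM. H3K27ac rose later, from 27.1% between 1 and 4 CPM over 58.5% between 4 and 16 CPM to 90.2% between 64 and 256 CPM. H3K27me3 was highest in the middle, at 33.0% between 0.1 and 1 CPM and 45.4% between 1 and 4 CPM, and was down to 13.0% between 64 and 256 CPM. The class from 1 to 4 CPM, with 1766 genes, was thus the only one of the 7 in which more genes carried H3K27me3 than H3K27ac while most carried H3K4me3.

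**Figure D2:**
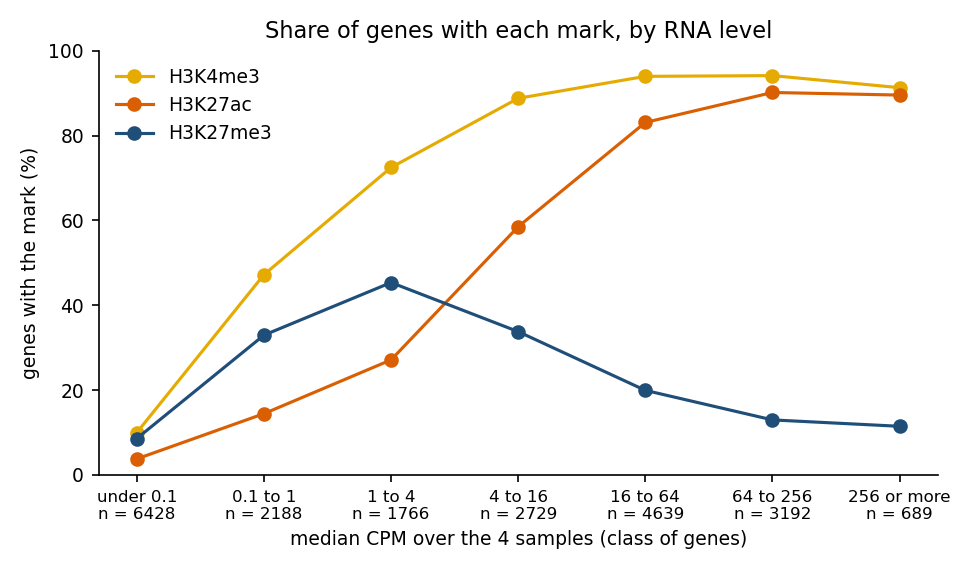
Share of genes with a peak of each mark within 2 kb of the start, in percent, against classes of median CPM over the 4 wild type E11.5 samples. H3K4me3 and H3K27ac climb to 94.1% and 90.2% between 64 and 256 CPM, and H3K27me3 has its highest share, 45.4%, between 1 and 4 CPM.

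The position of the peaks around the start differed between groups as well. In the group with H3K4me3 and H3K27ac, H3K4me3 covered the start of 93.8% of genes and H3K27ac that of 59.0%. The share of genes under an H3K4me3 peak was highest 400 bp into the gene, at 96.4%, and that under H3K27ac 200 bp into the gene, at 84.0%. With all 3 marks, H3K4me3 peaked at 95.5% of genes 700 bp downstream and H3K27ac at 67.5% of genes 300 bp downstream. H3K27me3 covered 40.4% of the starts in this group, 60.3% of the genes 1100 bp downstream and 27.2% at the 2 kb upstream edge. In the group with H3K4me3 and H3K27me3 it covered 77.9% of the starts and 87.0% of the genes 700 bp downstream. H3K27me3 of genes with all 3 marks therefore lay mostly beside the start rather than on it.

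**Figure D3:**
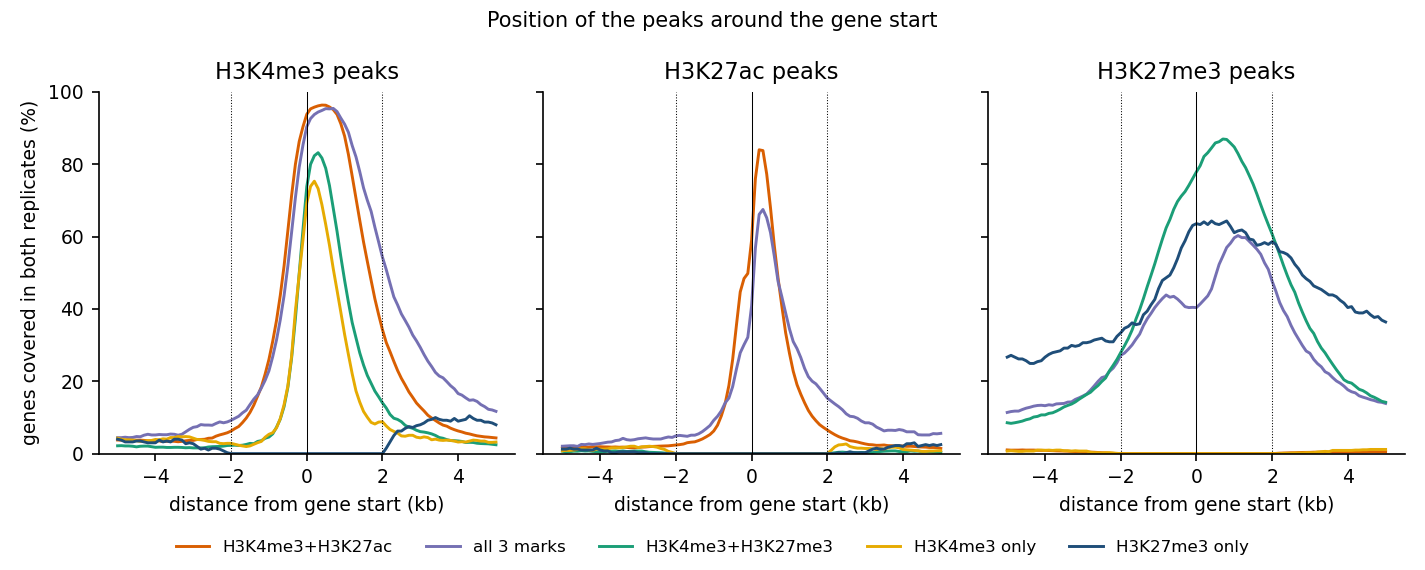
Share of genes under a peak of each mark, in percent, by distance from the gene start in kb along the direction of transcription. Each panel is a mark, and each line is a group. In genes with all 3 marks H3K27me3 reaches 60.3% at 1100 bp downstream and 40.4% at the start, against 87.0% at 700 bp downstream in genes with H3K4me3 and H3K27me3.

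The peaks also differed in size. H3K4me3 peaks of the H3K4me3 with H3K27ac group had a median fold enrichment over background of 53.7 and covered a median of 2285 bp of the window, and those of the genes with all 3 marks 42.4 and 2304 bp. The H3K4me3 peaks were lower and narrower with H3K27me3 and no acetylation, at 21.4 and 1223 bp, and with H3K4me3 alone, at 25.1 and 974 bp. H3K27ac had a median enrichment of 11.2 without H3K27me3 and of 7.73 with all 3 marks. H3K27me3 had a median enrichment of 3.99 with all 3 marks, over 1549 bp of the window, against 6.48 over 2882 bp with H3K4me3 and H3K27me3 and 6.31 over 2008 bp alone. All of these values describe the peaks that defined the groups.

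With all 3 marks, the H3K27ac and H3K27me3 peaks shared at least 1 base at 956 of 1607 genes (59.5%), counting bases under a peak in both replicates, with a median of 173 bp in common over all 1607 genes. The H3K4me3 and H3K27me3 peaks shared a base at 1438 of these genes (89.5%), with a median of 1020 bp. In the group with H3K4me3 and H3K27me3 they did so at 2333 of 2400 genes (97.2%), with a median of 1026 bp.

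Among genes with all 3 marks, RNA level followed the extent of H3K27ac and H3K4me3 but hardly that of H3K27me3. When the 1607 genes were split into 3 equal classes by H3K27ac bases in the window, the median was 14.4 ± 0.556 CPM in the lowest class, 25.8 ± 1.04 in the middle class and 58.8 ± 1.07 in the highest (mean ± SD, n = 4). The samples ranged from 13.7 to 14.97 CPM in the lowest class and from 57.7 to 59.8 CPM in the highest, with no overlap. Split by H3K4me3 bases, the medians were 14.0 ± 0.793, 36.2 ± 0.743 and 41.8 ± 1.59 CPM. Split by H3K27me3 bases, they were 28.3 ± 0.830, 29.1 ± 0.806 and 28.1 ± 1.13 CPM, and the ranges of the samples overlapped.

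Per kb of exon the same classes had 2.26, 3.71 and 8.69 CPM per kb by H3K27ac, 2.12, 5.08 and 6.45 by H3K4me3, and 3.98, 4.04 and 4.34 by H3K27me3. Across the 1607 genes, which share libraries and are not independent, Spearman's rho with CPM per kb was 0.444 for H3K27ac bases, 0.358 for H3K4me3 bases and 0.0461 for H3K27me3 bases. With fold enrichment in place of bases, the values were 0.420, 0.291 and -0.0747.

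**Figure D4:**
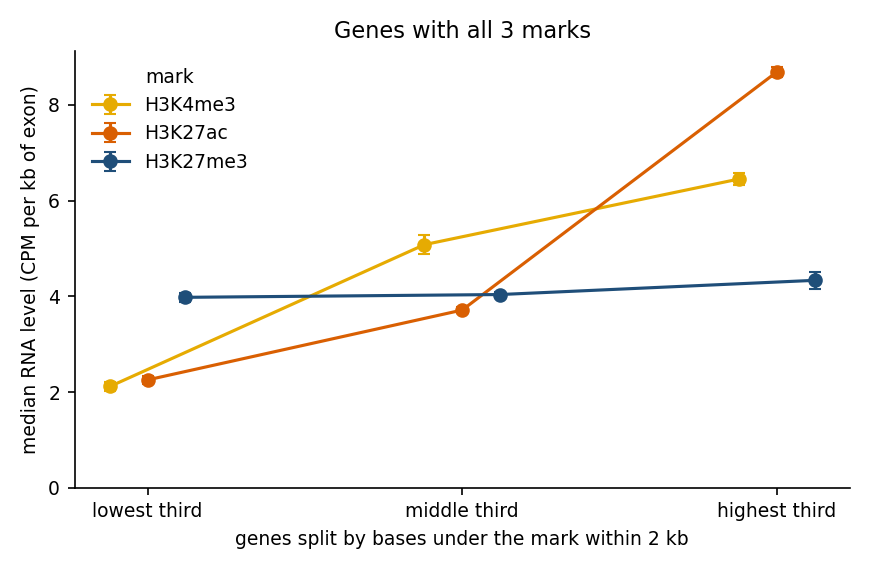
Median CPM per kb of exon of the genes with all 3 marks, split into 3 equal classes by the bases of each mark within 2 kb of the start. Points are means over the 4 samples, and bars are their SD. The median rises from 2.26 to 8.69 CPM per kb with H3K27ac and is 3.98, 4.04 and 4.34 with H3K27me3.

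Without acetylation, the extent of H3K27me3 did separate genes. In the group with H3K4me3 and H3K27me3, the classes by H3K27me3 bases had medians of 3.04 ± 0.117, 2.19 ± 0.102 and 1.23 ± 0.0348 CPM from the lowest class to the highest, and 64%, 59.2% and 46.5% of their genes were detected. The classes by H3K4me3 bases ran the other way, with medians of 0.562, 2.26 and 5.28 CPM. Spearman's rho across the 2400 genes was 0.384 for H3K4me3 bases and -0.126 for H3K27me3 bases, on CPM per kb. In genes with H3K4me3 alone the rho was 0.423 for bases and 0.436 for fold enrichment.

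CpG content of the promoter separated the groups too. A window from 250 bases before to 50 bases after the start was called CpG-rich when its GC content was at least 50% and its ratio of observed to expected CpG at least 0.6, which was so for 6977 of 21631 genes (32.3%). Of these, 6790 (97.3%) carried H3K4me3, 80.6% H3K27ac and 24.8% H3K27me3, and 132 (1.89%) carried no mark. Of the 14654 other genes, 44.9% carried H3K4me3 and 51.8% no mark. CpG-rich windows made up 58.2% of genes with H3K4me3 and H3K27ac, 51.3% with all 3 marks, 35.3% with H3K4me3 and H3K27me3, 28.3% with H3K4me3 alone, 13.7% with H3K27me3 alone and 1.71% of unmarked genes. None of the 131 genes with H3K27ac alone had one. The median ratio of observed to expected CpG fell in the same order, from 0.715 over 0.636, 0.516, 0.469 and 0.326 to 0.164.

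The promoters that follow show what these ratios look like in sequence, from the groups with H3K4me3 and H3K27ac (Pcna), all 3 marks (Neurog2 and Nes), H3K4me3 and H3K27me3 (Gbx2 and Col1a1), H3K27me3 alone (Hoxd3 and Six6) and no mark (Or5p58 and Or4g16). Each is the 200 bases just upstream of the gene start in mm39, 5′ to 3′ on the strand of the gene, read from the GRCm39 primary assembly, and capitals mark every CpG.
Pcna, chr2:132095235-132095434, minus strand: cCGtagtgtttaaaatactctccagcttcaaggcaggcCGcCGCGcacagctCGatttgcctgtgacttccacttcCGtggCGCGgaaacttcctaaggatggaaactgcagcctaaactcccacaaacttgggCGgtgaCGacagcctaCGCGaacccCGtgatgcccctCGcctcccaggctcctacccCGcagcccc
Neurog2, chr3:127426248-127426447, plus strand: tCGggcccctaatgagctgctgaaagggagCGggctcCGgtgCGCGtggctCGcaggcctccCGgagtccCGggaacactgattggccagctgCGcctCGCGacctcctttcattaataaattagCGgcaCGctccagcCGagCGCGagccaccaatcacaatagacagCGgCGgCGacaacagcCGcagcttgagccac
Nes, chr3:87878185-87878384, plus strand: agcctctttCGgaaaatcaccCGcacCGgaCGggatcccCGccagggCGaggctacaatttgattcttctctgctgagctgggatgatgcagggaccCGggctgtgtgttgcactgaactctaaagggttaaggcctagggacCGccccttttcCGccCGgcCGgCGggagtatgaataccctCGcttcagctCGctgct
Gbx2, chr1:89858921-89859120, minus strand: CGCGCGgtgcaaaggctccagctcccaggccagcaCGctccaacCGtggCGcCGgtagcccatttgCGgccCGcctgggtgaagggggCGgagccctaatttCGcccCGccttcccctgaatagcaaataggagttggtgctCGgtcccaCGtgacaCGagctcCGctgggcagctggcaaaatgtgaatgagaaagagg
Col1a1, chr11:94826850-94827049, plus strand: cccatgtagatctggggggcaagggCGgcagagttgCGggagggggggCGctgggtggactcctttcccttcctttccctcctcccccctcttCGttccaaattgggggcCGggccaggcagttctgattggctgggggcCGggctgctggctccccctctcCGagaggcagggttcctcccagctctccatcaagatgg
Hoxd3, chr2:74542071-74542270, plus strand: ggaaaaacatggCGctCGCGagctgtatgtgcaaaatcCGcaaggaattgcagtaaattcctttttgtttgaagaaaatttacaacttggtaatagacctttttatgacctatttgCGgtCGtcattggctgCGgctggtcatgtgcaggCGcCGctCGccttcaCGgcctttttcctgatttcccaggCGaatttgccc
Six6, chr12:72986466-72986665, plus strand: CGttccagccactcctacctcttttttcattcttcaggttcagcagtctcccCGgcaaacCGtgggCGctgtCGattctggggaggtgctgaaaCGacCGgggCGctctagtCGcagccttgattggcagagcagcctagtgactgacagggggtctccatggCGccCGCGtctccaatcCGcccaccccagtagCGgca
Or5p58, chr7:107696794-107696993, minus strand: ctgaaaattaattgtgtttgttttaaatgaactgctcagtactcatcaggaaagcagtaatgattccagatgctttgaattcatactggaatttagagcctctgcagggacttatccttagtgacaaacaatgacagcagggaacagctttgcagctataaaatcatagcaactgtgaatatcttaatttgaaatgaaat
Or4g16, chr2:111130780-111130979, plus strand: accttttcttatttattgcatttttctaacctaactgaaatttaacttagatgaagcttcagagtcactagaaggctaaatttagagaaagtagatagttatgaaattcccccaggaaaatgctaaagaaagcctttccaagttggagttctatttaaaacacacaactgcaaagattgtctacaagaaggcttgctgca
Pcna has 15 CpG in these bases, Neurog2 20, Nes 14, Gbx2 16, Col1a1 7, Hoxd3 12 and Six6 14, and the 2 olfactory receptor genes have 0. Over all genes of a group, the median count in these 200 bases was 10 (quartiles 6 and 16) with H3K4me3 and H3K27ac, 10 (5 and 16) with all 3 marks, 7 (4 and 13) with H3K4me3 and H3K27me3, 4 (2 and 8) with H3K27me3 alone and 1 (0 and 3) with no mark. The regulators Neurog2, Gbx2 and Six6 thus had CpG counts above the median of their groups while their RNA levels, given further on, lay far apart.

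Within each H3K4me3 group, CpG-rich promoters had the higher median. It was 47.3 against 35.3 CPM with H3K4me3 and H3K27ac, 31.5 against 25.2 with all 3 marks, 2.71 against 1.86 with H3K4me3 and H3K27me3 and 14.8 against 3.98 with H3K4me3 alone. A GC box, searched as GGGCGG on both strands in the 300-base window, was present in 53.8% of genes with H3K4me3 and H3K27ac, 54.8% with all 3 marks, 48.7% with H3K4me3 and H3K27me3, 26.9% with H3K27me3 alone and 8.43% without a mark, against 35.8% of all promoters. TATAAA, the core of the TATA box, ran the other way, at 8.13%, 7.90%, 8.79%, 13.5% and 22.8%, against 13.7% of all promoters. These are matches of letters, not binding sites, and GC boxes contain a CpG themselves.

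Most genes of the 3 lists of general cell function sat in the H3K4me3 with H3K27ac group. For comparison, 38.1% of all genes were in that group, and 58.1% of all genes were detected. Of 82 cytosolic ribosomal protein genes, 74 were in it, 77 were detected, and the list had a median of 412 CPM and 143 CPM per kb, against 5.42 CPM and 0.95 CPM per kb over all genes. Rps4x had the highest level of the 74 per kb, with 958, 1190, 970 and 1043 CPM, and Rpl24 and Rpl36al had the lowest with 0.491 ± 0.234 and 0.270 ± 0.0819 CPM. Ribosomal genes have many near-identical processed copies, which makes such low counts uncertain. Unmarked were Rplp0 and Rpl41, which had H3K4me3 and H3K27ac at the canonical start, and the tissue-restricted paralogues Rpl10l, Rpl39l and Rpl3l, which had no mark at either start and at most 0.0548 CPM on average. Of 22 cell cycle and replication genes, 21 were in it, with a median of 186 CPM and all 22 detected. Pcna, the sliding clamp of DNA polymerase, had 288, 316, 306 and 293 CPM. Rrm2, a subunit of ribonucleotide reductase, had a mean of 463 ± 16.6 CPM (SD, n = 4). The exception was the mitotic kinase gene Cdk1, whose annotated start had H3K4me3 with H3K27me3 while it had 143 ± 11.6 CPM, and whose canonical transcript starts at a promoter with H3K4me3 and H3K27ac. Of 28 genes for writers and erasers of the 3 marks, 22 (78.6%) were in the group and all 28 were detected. The deacetylase genes Hdac2 and Hdac3 carried all 3 marks, and Rbbp5, Ash2l and Dpy30, members of the H3K4 methyltransferase complexes, had no mark at the annotated start but H3K4me3 with H3K27ac at the canonical start. Ezh2, the main methyltransferase subunit of Polycomb repressive complex 2 in proliferating cells, was in it with a mean of 276 ± 42.8 CPM. Its paralogue Ezh1 had H3K4me3 alone and 24.1 ± 1.55 CPM.

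Most genes of the lists of diencephalic factors, neural progenitor genes, neuron genes and proneural genes carried all 3 marks. Of 40 transcription factors that pattern the diencephalon, 30 (75%) had all 3 marks, against 7.43% of all genes, and 38 were detected with a median of 36.0 CPM. Otx2, a homeobox gene of forebrain and midbrain, had 287, 297, 345 and 327 CPM. Dbx1, a homeobox gene of progenitors, had 165, 191, 116 and 131 CPM, and Sim1, a hypothalamic regulator, 15.1, 10.3, 20.4 and 18.8 CPM. Dlx6, a homeobox gene of inhibitory neurons, was the lowest of the 30 with 3.06, 5.19, 2.89 and 3.40 CPM. Per kb of exon these genes ran from a mean of 69.6 CPM per kb for Dbx1 and 58.0 for Otx2 to 1.83 for Sim1 and 1.34 for Dlx6, under the same combination of marks. Tcf7l2, a Wnt effector of the thalamus and pretectum, was the only member of the list with H3K4me3 and H3K27ac and no H3K27me3, and it had 1392, 944, 1096 and 931 CPM.

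The list also had 6 members with H3K4me3 and H3K27me3 and 3 with H3K27me3 alone. Gbx2, a thalamic homeobox gene, had H3K4me3 with H3K27me3 and 43.4, 18.7, 13.3 and 9.94 CPM, with replicate 1 above the other samples. Isl1, a LIM homeobox gene, had the same marks and 1.61, 6.73, 3.20 and 5.85 CPM. Six6, a regulator of eye and pituitary, had H3K27me3 alone and between 0 and 0.0552 CPM, which is at most 1 read. Rax, an early factor of eye and hypothalamus, had H3K27me3 alone and 0.117 ± 0.147 CPM. Otp, needed for hypothalamic neurosecretory neurons, also had H3K27me3 alone within 2 kb of its start but 19.3, 23.3, 8.19 and 14.3 CPM, far above the median of that group.

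Most genes of the progenitor, neuron and proneural lists showed the same combination. Of 20 neural progenitor genes 14 had all 3 marks, with a median over the list of 175 CPM and 20 of 20 detected. Nes, the intermediate filament of neural progenitors, had 1652, 1506, 1865 and 1731 CPM, and Sox2, a pluripotency and progenitor factor, 249, 263, 240 and 250 CPM. The lowest of the 14 per kb of exon was the Notch target Hes1, with 28.8, 38.1, 20.9 and 27.9 CPM. Notch1 itself had no mark at its annotated start, all 3 at its canonical start and 216 ± 31.9 CPM. Of 22 neuron genes 16 had all 3 marks, with a median of 230 CPM and 22 of 22 detected. Tubb3, the neuronal beta-tubulin, had 949, 893, 671 and 747 CPM, and Myt1l, a neuronal zinc finger factor, 15.2, 5.68, 15.7 and 12.7 CPM. Of 10 proneural genes 7 had all 3 marks and 10 of 10 were detected. The basic helix-loop-helix gene Neurog2 was among them with 293, 263, 186 and 214 CPM. The tissue holds progenitors and neurons side by side, and how the marks divide between them was not measured.

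Regulators of other brain regions and other lineages had H3K27me3 mostly without acetylation. Over all genes, 11.1% had H3K4me3 with H3K27me3, 1.85% H3K27me3 alone and 7.43% all 3 marks, and 58.1% were detected. Of 22 telencephalic and hindbrain factors 12 had H3K4me3 with H3K27me3, 4 H3K27me3 alone and 5 all 3 marks, and 7 of 22 were detected with a median of 0.61 CPM. Emx2, a homeobox gene of the dorsal forebrain, had all 3 marks and 60.4, 54.4, 40.7 and 41.7 CPM. Of 30 measured regulators of non-neural lineages 10 had H3K4me3 with H3K27me3 and 15 H3K27me3 alone, and 5 were detected. Foxa1, also a gene of the ventral midline, was the only one with all 3 marks, at 69.2 ± 6.82 CPM. Tbx18, with H3K4me3 and H3K27me3, had 24.1 ± 1.82 CPM.

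None of the 39 Hox cluster genes, which specify position along the trunk and hindbrain, was detected, against 58.1% of all genes. H3K27me3 alone was found at 30 of them and H3K4me3 with H3K27me3 at 9, so that all carried H3K27me3, against 20.4% of all genes. Hoxd3 had no read in any sample. The highest with H3K27me3 alone was Hoxc13, with 0.161, 0.110, 0.262 and 0.172 CPM. Among the 401 genes with H3K27me3 alone, 30 were thus Hox genes.

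Genes of neuronal signalling mostly had H3K4me3, with or without H3K27me3. Among all genes, 11.1% had H3K4me3 with H3K27me3, 7.43% all 3 marks, 38.1% H3K4me3 with H3K27ac and 35.7% no mark, and 58.1% were detected. Of 20 synaptic channel and receptor genes 7 had H3K4me3 with H3K27me3, 5 all 3 marks and 3 H3K4me3 with H3K27ac, and 19 were detected with a median of 8.37 CPM. Of the 7, Kcnc1, a voltage-gated potassium channel, was the highest per kb with 21.1, 15.8, 18.3 and 16.8 CPM, followed by the AMPA receptor subunit Gria1 with 9.66, 5.57, 10.1 and 8.91 CPM. The lowest were Grin2a, an NMDA receptor subunit, with 2.10 ± 1.04 CPM, and Slc17a7, a vesicular glutamate transporter, with 0.794 ± 0.124 CPM, the only gene of the list below detection. Grin2b, another NMDA receptor subunit, had 8.32, 4.14, 10.03 and 6.41 CPM at E11.5 and a mean of 482 CPM at E17.5. With all 3 marks were Slc17a6, Gad2, Cacna1b, Slc32a1 and Gria2, of which the vesicular glutamate transporter gene Slc17a6 had 59.7, 28.0, 66.6 and 42.2 CPM. Of 15 genes of astrocytes and oligodendrocytes, which arise later, 10 had no mark and 6 were detected.

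Genes typical of vessels, mesenchyme and macrophages were spread over groups that hold 11.1% (H3K4me3 with H3K27me3), 5.19% (H3K4me3 alone) and 35.7% (no mark) of all genes, although most were detected here. Of 12 endothelial genes 6 had H3K4me3 with H3K27me3, 2 H3K4me3 alone and 3 no mark, and 12 of 12 were detected with a median of 19.2 CPM. Kdr, the receptor for vascular endothelial growth factor, had H3K4me3 with H3K27me3 and 112 ± 6.64 CPM. Of 12 genes of mesenchyme and meninges 5 had H3K4me3 with H3K27me3, 3 H3K4me3 alone and 3 all 3 marks, with a median of 44.7 CPM. The collagen gene Col1a1 had H3K4me3 with H3K27me3 and 382, 464, 290 and 371 CPM. Col3a1, another collagen gene, had H3K4me3 alone and 776 ± 115 CPM. Of 12 macrophage and microglia genes 10 had no mark, and 9 were detected with a median of 4.30 CPM.

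Erythroid genes, which encode globins and other proteins of red blood cells, fell partly in the rare combinations. All 13 measured genes were detected, against 58.1% of all genes, and together the 13 had between 1828 and 3986 CPM in the 4 samples. H3K27ac alone was found at Hbb-y, Hba-a1 and Alas2, and no mark at Hbb-bt, Hbb-bs, Hba-a2 and Gata1. Hbb-y, an embryonic beta-globin, had H3K27ac alone and 1394, 1747, 810 and 1110 CPM. Hbb-bh1, another embryonic beta-globin, had H3K4me3 alone and 419, 858, 380 and 559 CPM. Its H3K4me3 peaks were weak, with an enrichment of 4.21 against a group median of 25.1. The peaks of its 2 replicates shared no base in the window. Hba-x, the embryonic alpha-globin zeta, had H3K27ac with H3K27me3 and 679, 984, 455 and 644 CPM. These 3 globin genes were all highest in replicate 2 and lowest in replicate 3. At E17.5 Hbb-y was at 0.0721 CPM and Hbb-bh1 at 0.0116 CPM. Of the 6 genes with H3K27ac and H3K27me3 and no H3K4me3, Hba-x was by far the highest. The others were Chrna4 with 89.1 ± 4.63 CPM, Grm4 with 16.1 ± 2.33, Itga2b with 6.98 ± 1.38, A930009A15Rik with 0.380 ± 0.232 and Cripto with 0.0323 ± 0.0645, and the first 3 of these had all 3 marks at their canonical start. The part of blood cells in the group medians was not tested.

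Large families of genes for tissues elsewhere in the body mostly carried no mark. Among all genes, 35.7% were unmarked and 58.1% were detected. Of 1194 olfactory receptor genes 1191 were unmarked and 2 were detected, of 351 vomeronasal receptor genes all but Vmn1r4 (350) were unmarked and none was detected, and of 165 keratin and keratin-associated genes 154 were unmarked and 5 were detected. The exceptions among olfactory receptors were Or10c1 with H3K4me3 and H3K27me3, and Or51a6 and Or51r1 with H3K27ac alone, and all 3 had no read in any sample. The 2 detected were Or5p58 with 2.10 ± 0.641 CPM and Or4g16 with 1.63 ± 0.359 CPM.

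**Figure D5:**
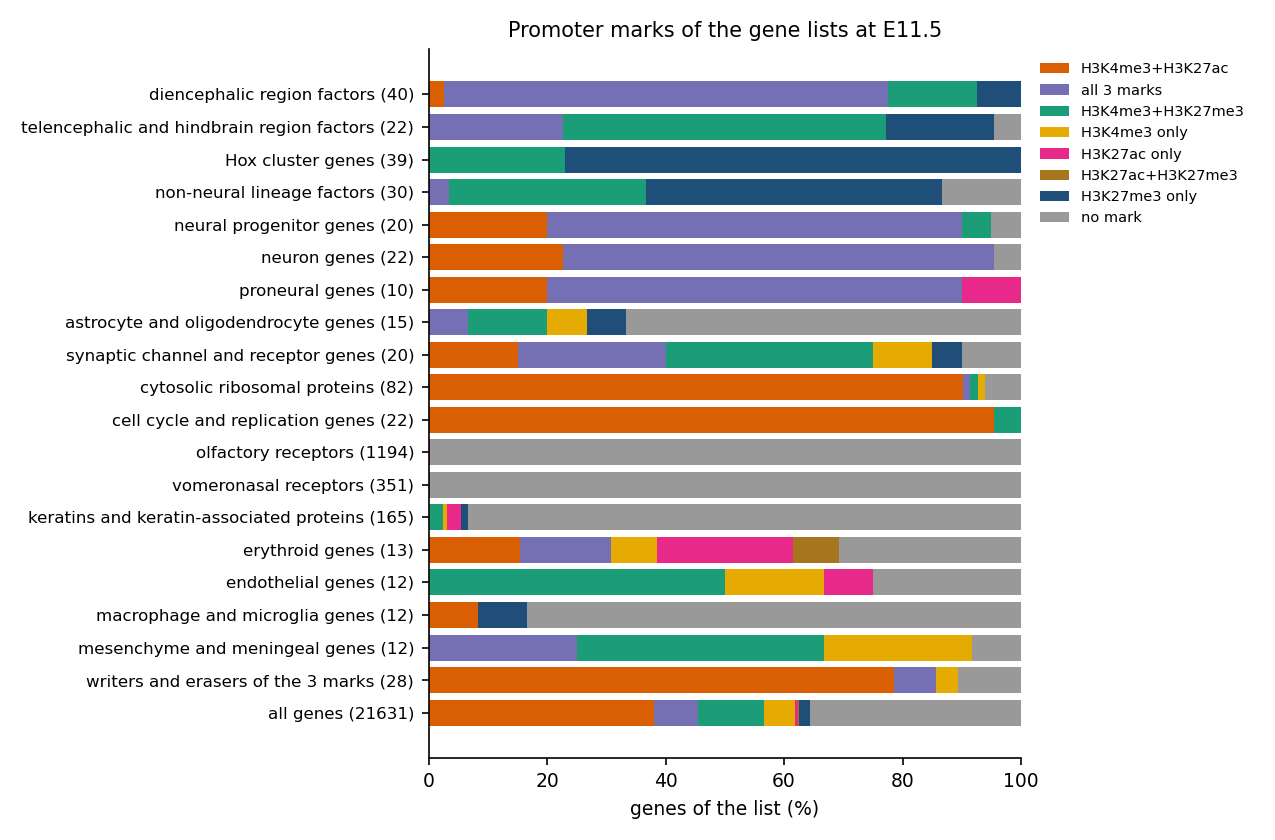
Composition of the gene lists by promoter mark group, as the percent of each list's measured genes, with all 21631 genes for reference. All 3 marks make up 75% of the diencephalic region factors against 7.43% of all genes, and H3K27me3 with or without H3K4me3 makes up the whole of the Hox cluster genes.

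The genes with the highest RNA in each group show what a combination can hold. With H3K4me3 and H3K27ac they were Tuba1a, an alpha-tubulin with 3583, 3420, 2593 and 2841 CPM, the translation factor gene Eef1a1 with 7574 ± 584 CPM, Ptma and Actb, cytoplasmic beta-actin with 2906, 3203, 2026 and 2747 CPM. With all 3 marks they were Tmsb4x, an actin-binding thymosin with 1281, 1215, 1123 and 1163 CPM, the neural beta-tubulin gene Tubb2b with 2303, 2201, 1762 and 1910 CPM, the linker histone gene H1f0 with 672, 660, 591 and 620 CPM, and Cd24a. Per kb of exon, Tmsb4x had 722 CPM per kb, against 1716 for Tuba1a, 1525 for Eef1a1 and 931 for Actb.

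With H3K4me3 and H3K27me3 the highest genes by CPM per kb were Rpl3, Crabp1, 1110004F10Rik and Gpc3. Crabp1, which binds retinoic acid in the cytoplasm, had 48.2, 92.4, 110 and 117 CPM, with replicate 1 the lowest. Gpc3, a cell surface proteoglycan, had 162, 220, 145 and 184 CPM. The ribosomal gene Rpl3 had 1011, 1233, 923 and 1048 CPM, and its canonical transcript, like that of 1110004F10Rik, starts at another promoter, which had H3K4me3 with H3K27ac. With H3K4me3 alone the highest were Hbb-bh1 and H3f3b, Ywhaz and Rps24, and the last 3 had H3K4me3 with H3K27ac at their canonical start. With H3K27ac alone they were Hbb-y, Hba-a1, Mest and Sparc. Mest, an imprinted gene with 511, 761, 571 and 713 CPM, and Sparc, a matrix protein gene with 312, 353, 253 and 302 CPM, again had H3K4me3 with H3K27ac at the canonical start. Among the genes with no read, 4930544D05Rik and AA467197 come first by name with H3K4me3 and H3K27me3, and 1700122O11Rik and 4930451I11Rik with H3K4me3 alone.

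Which start is taken for a gene therefore decided the group of many high genes. The 5′-most annotated start differed from that of the canonical transcript for 8737 genes (40.4%), by more than 2 kb for 2365 (10.9%), and the group differed for 1429 (6.61%). Among unmarked nuclear genes with 64 CPM or more there were 208, and 192 of them had H3K4me3 with H3K27ac, with or without H3K27me3, at the canonical start, while 12 remained unmarked. Examples were Hsp90ab1, a chaperone gene with 3534, 3997, 3222 and 3542 CPM, and Set and Rpl41. Tmsb10b, with a mean of 139 CPM, had no mark at either start. Of the genes with H3K27me3 alone, Ogt, Rbpj and Lman1, at 286, 198 and 118 CPM, all had H3K4me3 with H3K27ac at the canonical start, with or without H3K27me3, while Myef2l, at 21.0 CPM, kept H3K27me3 alone. With canonical starts for all genes the medians were 43.9 CPM for H3K4me3 with H3K27ac, 28.2 for all 3 marks, 5.68 for H3K4me3 alone, 1.95 for H3K4me3 with H3K27me3, 0.548 for H3K27ac alone (86 genes, 33.7% detected) and 0.0565 for H3K27me3 alone, and 7.35% of unmarked genes were detected.

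Genes with active marks and no RNA formed a small opposite class. Of the 8241 genes with H3K4me3 and H3K27ac, 113 (1.37%) had no read in any of the 4 samples, against 21.1% of all genes. Of these, 99 (87.6%) had the start of another annotated gene within 2 kb, against 60.1% of the whole group. In the column that counts by strand, 7 of the 113 had 10 or more reads. Examples were 1700017N19Rik, which had no mark at its canonical start, and 1810009A15Rik, which had H3K4me3 with H3K27ac there too. With H3K4me3 and H3K27me3, 88 genes (3.67%) had no read, and 49 of them (55.7%) had another start within 2 kb.

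The medians of the groups formed at E11.5 moved in different directions by E17.5. The median of H3K4me3 with H3K27me3 went from 2.10 CPM at E11.5 to 4.62 CPM at E17.5, where the samples had 4.58, 4.45, 4.68 and 4.78 CPM. That is 0.98 higher on the log2(CPM + 0.5) scale. The median of H3K4me3 with H3K27ac went from 42.2 to 33.9 CPM, with 30.8, 33.5, 36.1 and 35.3 CPM at E17.5, or 0.31 lower, and that of all 3 marks from 28.6 to 31.9 CPM, or 0.16 higher. Each of these 3 passed the exact two-sided permutation test of 4 against 4 samples (p = 0.0286, the smallest it allows, adjusted p = 0.0381 over 4 groups), with no overlap between the stages. The median of unmarked genes stayed at 0. With a stricter peak threshold (−log10 q of at least 5) the differences of H3K4me3 with H3K27ac and H3K4me3 with H3K27me3 kept their size and direction, at -0.28 and 1.003, but not the call (adjusted p = 0.0571 each). The rise of the genes with all 3 marks turned into a fall of 0.67 when a peak had to cover the start (adjusted p = 0.0381) and was -0.022 with the stricter peak threshold (adjusted p = 0.99).

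The share of detected genes did not follow the medians in every group. It went from 56.6% to 67.8% with H3K4me3 and H3K27me3, where 387 genes were detected only at E17.5 and 118 only at E11.5, against a rise from 58.1% to 60.2% over all genes. With all 3 marks it went from 93.7% to 93.4% (39 genes only at E17.5 and 44 only at E11.5) although the median was higher at E17.5, and with no mark from 13.0% to 14.9% while the median stayed at 0. With H3K4me3 alone it went from 70.0% to 75.9%, with H3K27me3 alone from 21.9% to 27.7% and with H3K4me3 and H3K27ac from 94.2% to 93.5%. Single genes of the group with H3K4me3 and H3K27me3 went either way. Gria1, an AMPA receptor subunit, had 8.57 CPM at E11.5 and 208 at E17.5, Slc1a3, the glutamate transporter of radial glia and astrocytes, 53.1 and 238, and Isl1 4.35 and 49.3, while Crabp1 had 92.0 and 2.64 and Gpc3 178 and 59.0. Among genes with all 3 marks Nes had 1689 and 89.5 CPM and Myt1l 12.3 and 276 CPM. Cell composition, tissue size and the number of pooled embryos differ between the stages and cannot be told apart from them.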

How the data were processed

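Chromatin immunoprecipitation with sequencing of H3K4me3, H3K27ac and H3K27me3 (2 wild type E11.5 replicates each) and poly(A) RNA sequencing (4 wild type replicates at E11.5 and 4 at E17.5) were used. The authors mapped ChIP reads to mm39 with Bowtie2 2.4.2, discarded duplicate and multiply mapped reads, and ran MACS2 2.2.7.1 on every replicate separately. The deposited peak lists give, for a peak, its fold enrichment over background (a ratio) and its −log10 q-value. The H3K27me3 lists have the broad form, and their settings were not given in the sources used here. Their lowest −log10 q was 1.07 and 1.08 in replicates 1 and 2, a laxer limit than for the other marks. It was 1.34 and 1.31 for H3K4me3 and 1.34 and 1.32 for H3K27ac. The group shares of the gene lists were not recomputed with a stricter q. For RNA, the deposited tables hold raw read counts per gene from STAR 2.7.9a on GENCODE release 31.

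Gene starts and exon lengths came from GENCODE release 39 on mm39, matched by gene identifier (99.4% of protein-coding genes, 139 unmatched). Unstranded counts (column 2) were divided by the total of all gene counts to give CPM. Lines that name no gene held 49.9% to 55.3% of reads and stayed out of the totals. Unstranded counting cannot separate a gene from one that overlaps it. One count was worth 0.0430 to 0.0552 CPM, and this counting error does not cover amplification of molecules. The samples of a pair differed by more than sampling noise (chi-square per gene 8.91 to 59.9), so none was taken as a duplicate.

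A group's value in a sample was the median over its genes, with a pseudocount of 0.5 on the log2 scale. Differences between groups were tested over samples by exact two-sided sign flips, and stages by exact two-sided permutation, with Benjamini-Hochberg adjustment. The scripts were tested on simulated data. In groups of at least 20 genes the 4 highest genes and, with H3K4me3, the 2 lowest by median CPM per kb were named (ties at 0 by name, mitochondrial genes left out), with the highest and lowest 2 of each gene list within a group. Some genes and sequences that this rule takes are not reported here. Grin2b, Or10c1, Or51a6, Or51r1, Vmn1r4 and members of lists that form 5 or fewer in a group were named after their values were seen. Mark groups and gene lists were chosen with earlier results of these data known. Alternatives were a window of 1 or 5 kb, a peak over the start, a −log10 q of at least 5, a peak in 1 replicate, genes with a mark in only 1 replicate left out, canonical starts, pseudocounts of 0.1 and 1, CPM per kb, a minimum of 10 counts, TMM scaling (edgeR 4.0.16, R 4.3.3), strand counts, the humanized samples, and each sample left out. Python 3.11.15, pandas 2.3.3, NumPy 2.4.6, SciPy 1.17.1 and matplotlib 3.10.9 were used.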

Additional observations from a re-analysis of the deposited data

Results flagged for a closer look

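Dixon's gap test was applied to 68 sets of 4 wild type RNA values from E11.5, with the group medians at E17.5 among them. In 4 sets, all from E11.5, 1 sample had a gap to the others that was too large a part of the range for the 95% limit. Chance alone gives about 1 in 20. Ywhaz, a 14-3-3 protein gene with H3K4me3 alone at its annotated start, had 1034 CPM in replicate 3 and 1142 to 1158 CPM in the others. The summed level of the regulators of non-neural lineages was 119 CPM in replicate 4 and 104 to 105 CPM in the others. Cripto, with H3K27ac and H3K27me3, had 0.129 CPM in replicate 4 and 0 in the others, and 4930527J03Rik, with all 3 marks, had 0.0525 CPM in replicate 3 and 0 in the others. The last 2 values are 3 reads and 1 read.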

How the results depend on the processing

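The 8 differences between groups were recomputed 192 times and kept their sign 191 times, which for a test that cannot pass 0.05 says nothing of its threshold. The exception was H3K27me3 alone against no mark, at -0.17 with genes under 10 counts left out. The other 7 ranged, on the log2 scale, from 0.93 to 3.41 for H3K4me3 with H3K27ac against H3K4me3 alone, -0.65 to -0.0028 for all 3 marks against H3K4me3 with H3K27ac, -2.76 to -0.90 for H3K4me3 with H3K27me3 against H3K4me3 alone, 2.35 to 3.78 for all 3 marks against H3K4me3 with H3K27me3, 0.75 to 3.37 for H3K4me3 with H3K27me3 against H3K27me3 alone, 1.75 to 5.98 for H3K4me3 alone against no mark and 0.69 to 4.33 for H3K27ac alone against no mark. CPM per kb gave 1.75, 2.35 and 0.75, a pseudocount of 0.1 gave 5.98 and 3.37, and a peak covering the start gave 0.93, -0.0028, -2.76 and 4.33 among these limits. That peak rule left 215 genes with all 3 marks and 4504 with H3K4me3 alone. With a −log10 q of at least 5 there were 647 and 2154, and with a peak in at least 1 replicate 2482 genes had all 3 marks.

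The 4 stage differences were recomputed 116 times and kept sign and call 108 times. The exact permutation test gave, for all 3 marks, -0.67 with a peak over the start (adjusted p = 0.0381) and -0.022 with a −log10 q of at least 5 (adjusted p = 0.99). The same stricter q gave -0.28 for H3K4me3 with H3K27ac and 1.003 for H3K4me3 with H3K27me3 (adjusted p = 0.0571 each), where the adjustment over 4 groups had fewer small p-values. Unmarked genes had 0.52 with genes under 10 counts left out (adjusted p = 0.0286). Apart from the size of groups, the cause of these moves was not tested. Replicate numbers did not pair the stages: deviations of same-numbered samples correlated at -0.730 to 0.577, and 2 of 4 samples correlated best with their own number. With the replicate number as a block the differences were -0.31, 0.98 and 0.16 (adjusted p = 0.167), which 4 pairs cannot bring lower. Leaving out any 1 sample changed no call, with -0.31 reaching -0.27 without E17.5 replicate 1. At 18124370 reads or more, 1 read is worth at most 0.0552 CPM, so levels of H3K27me3-only and unmarked genes rest on few reads.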

Other observations

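Gene families with 15 or more measured members, grouped by the letters of their symbols and picked here after their values were seen, differed in the marks they carried. Over all genes, 38.1% had H3K4me3 with H3K27ac, 11.1% H3K4me3 with H3K27me3, 7.43% all 3 marks and 35.7% no mark, and 58.1% were detected. Of 19 Wnt genes, which encode secreted signals, 12 (63.2%) had H3K4me3 with H3K27me3 and 6 all 3 marks, and 13 were detected. Of 19 Sox genes, which encode HMG-box transcription factors, 8 (42.1%) had all 3 marks, 5 H3K4me3 with H3K27me3 and 4 H3K4me3 with H3K27ac, and 16 were detected. Of 15 Kcnj genes, which encode inward rectifier potassium channels, 9 had H3K4me3 with H3K27me3 and 6 no mark, and 5 were detected. In contrast, 17 of 18 Kdm histone demethylase genes and 32 of 35 Vps genes for vacuolar sorting had H3K4me3 with H3K27ac.

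H3K4me3 alone, found at 5.19% of all genes, held 13 of 48 Cfap genes (27.1%), which encode proteins of cilia and flagella, and 60 of 419 Zfp genes (14.3%), most of which encode zinc finger proteins. All 22 Pcdhb protocadherin genes were unmarked at their start although 8 of them were detected. These genes lie side by side in 1 cluster and share sequence, which makes their counts uncertain.

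The spread between the 4 samples was much alike in the groups once genes of like level were compared. Between 8 and 32 CPM the median SD of log2 values was 0.203 with H3K4me3 and H3K27ac, 0.209 with all 3 marks, 0.223 with H3K4me3 and H3K27me3, 0.190 with H3K4me3 alone and 0.232 with no mark. Another annotated gene started within 2 kb for 60.1% of genes with H3K4me3 and H3K27ac, 49.9% with all 3 marks, 38.1% with H3K4me3 and H3K27me3, 28.4% with H3K27me3 alone and 14.7% with no mark, against 38.7% of all genes.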
